A study of Mus musculus with 6 samples.

Results

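Splicing factors and heterogeneous nuclear ribonucleoproteins (hnRNPs) were compared between Rb null and wild type fetal liver of the mouse at embryonic day 12.5. They were taken by gene symbol, as all probe sets that the platform annotation gives to a single gene whose symbol starts with Sf1, Sf3, U2af, Snrp, Lsm, Prpf, Srsf, Hnrnp or Ptbp. The rule found 84 of 12422 probe sets, which stood for 63 of the 8251 genes on the array: 1 Sf1, 8 Sf3, 3 U2af, 8 Snrp, 8 Lsm, 8 Prpf, 9 Srsf, 16 Hnrnp and 2 Ptbp genes. The rule itself uses the symbols and no measured value. A further 8 probe sets are annotated to a family gene together with another gene and were left out, and 1 member, Snrp1c-ps2, carries a name that marks a pseudogene. The embryos were Rb null (3) or wild type (3), untreated, and came from matings of 129sv mice heterozygous for Rb, the retinoblastoma gene. Total RNA of each disaggregated whole liver was read on an Affymetrix array of its own, so n = 3 embryos per genotype throughout. The labels give neither sex nor litter.

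Splicing removes introns from pre-mRNA. It is carried out by the spliceosome, which is built on each intron from small nuclear ribonucleoproteins (snRNPs), particles of a short RNA with a ring of Sm or Sm-like (LSm) proteins. SF1 and U2AF bind the end of the intron first, and the SF3A and SF3B complexes then fix the U2 snRNP on the branch site. Some of the PRPF proteins join with the U4/U6.U5 particles. SR proteins (Srsf genes) mostly favour the use of nearby exons, whereas hnRNPs and the polypyrimidine tract binding proteins (Ptbp genes) often oppose it, and many genes of these families are known to regulate their own mRNA through alternative splicing. The fetal liver is rich in erythroblasts, which are known to change the splicing of many transcripts as they mature.

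Levels are MAS5 signals, taken to be on a linear scale. An offset of 50.02 was added to each signal before log2, which understates the change of dim genes. Changes are given as Rb null minus wild type in these log2 units, ± SE, so that a negative value is a lower level in Rb null livers. Where a gene had several probe sets, the one of highest mean signal stood for it. A gene is said to rise or fall only where q, the limma p adjusted by Benjamini-Hochberg over all 6793 tested probe sets, was below 0.05. Probe sets with a mean signal above 150.1 were tested. Rb1, the check of the labels, read between 127 and 142 in Rb null and between 706 and 791 in wild type livers. All arrays had a 2% trimmed mean near 500.2, but the median signal over all probe sets was 198 to 203 in Rb null and 177 to 187 in wild type arrays. The ratio of the 3' to the 5' Gapdh control was 0.829 to 0.888 in Rb null and 0.915 to 0.924 in wild type arrays, and that of actin was 1.19 to 1.31 against 1.12 to 1.21. Erythroid markers had a summed signal of 52086 to 57727 in Rb null against 68361 to 73801 in wild type livers, with 7 of 9 tested markers lower and none higher. Of the hepatoblast markers 1 of 10 rose and 2 fell (sums 39004 to 41553 against 41466 to 44944). Of the macrophage markers 3 of 8 rose (4787 to 5277 against 4150.4 to 4277), and of the megakaryocyte markers 3 of 4 (2557 to 2984 against 1539 to 1641). Of the granulocyte markers 5 of 7 rose (10662 to 11133 against 8078 to 8323), of the endothelial markers 2 of 7 (4668 to 5093 against 3927 to 4159.6) and of the mesenchymal markers 5 of 7 (12707 to 14382 against 10023 to 10341). No marker on the array was listed at 0 in all embryos, and the erythroid and hepatoblast markers on the array all passed the signal filter. The part of these differences in the values below was not tested. In whole livers, fewer cells of a type and less RNA per cell cannot be told apart.

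Splicing genes differed little between the genotypes. Of 62 tested member genes, 9 fell and 2 rose in Rb null livers, and the other 51 did not pass the test. None changed 2-fold. The genes that fell were Sf3a2, Lsm3, U2af2, Hnrnpm, Sf3b5, Snrpe, Srsf2, Hnrnpa2b1 and Snrpg, by 0.17 to 0.57 on the log2 scale. The genes that rose were Ptbp2 and Hnrnpk. The share that changed, 17.7%, was near the background of 22.6% among all 5273 tested genes. It was 14.5% for falls beside a background of 9.50%, and 3.23% for rises beside 13.1%. The median log2 fold change was -0.08 over the members and 0.02 over all tested genes, with 42 members below 0 and 20 above, where 46.2% of all tested genes were below 0. The 3 values of one genotype lay wholly beyond the 3 of the other for 24 members, 38.7%, where the background was 41.2%. All Rb null values were the lower ones in 18 of the 62 members, beside 17.6% of all tested genes. They were the higher ones in 6 of the 62, beside 23.5%. The 95% interval, not adjusted for the number of tests, reached a median of 0.17 to either side of the estimate. A call needed q below 0.05, so shifts larger than this could also have been missed. The members that did not pass ranged from -0.23 to 0.25, and for 6 of these 51 the interval did not include 0.

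**Figure D1:**
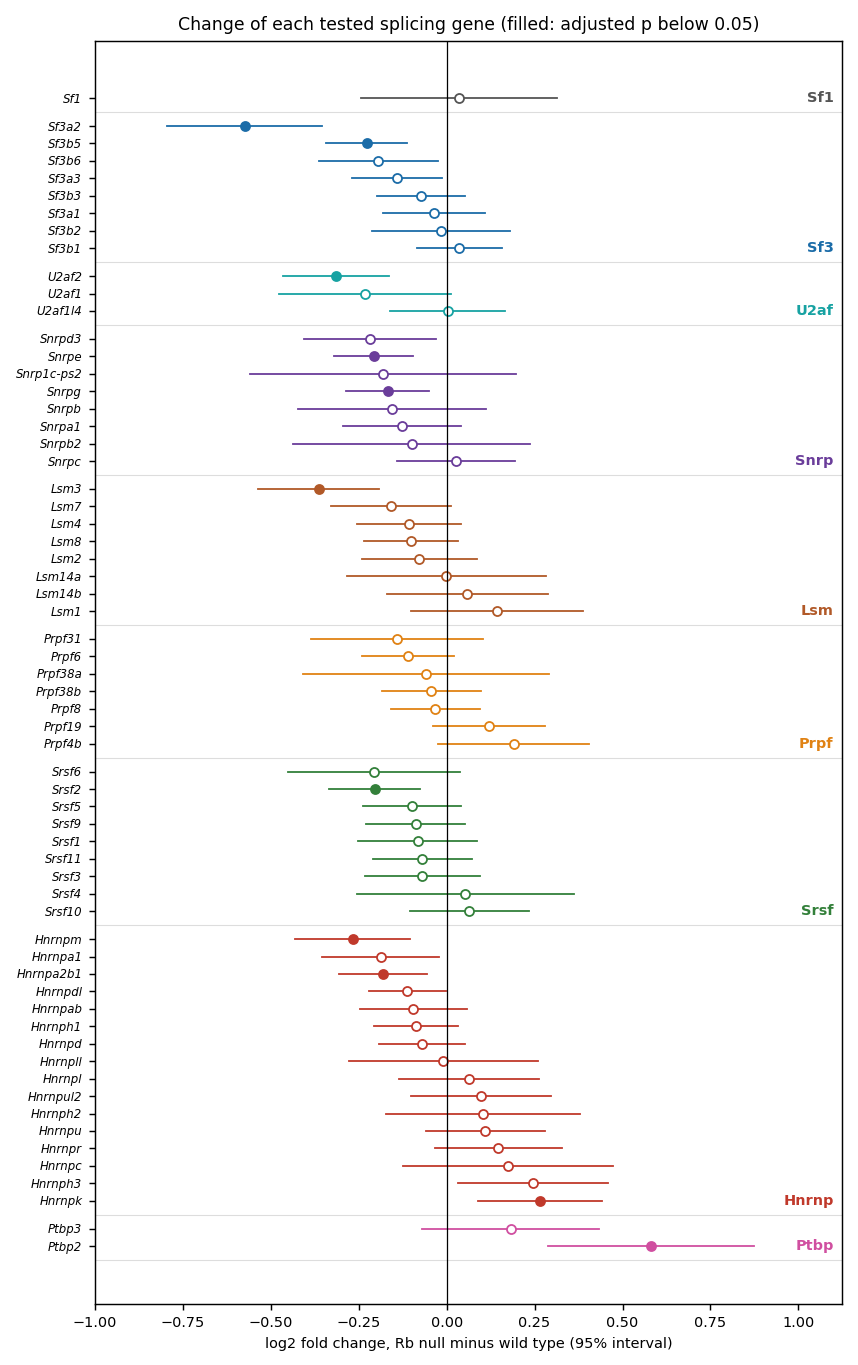
Log2 fold change (Rb null minus wild type, x axis) of each of the 62 tested genes, sorted within their symbol groups, with bars for the 95% interval. Filled points passed a q of 0.05 by limma; 9 of the 11 filled points lie left of 0, and only Hnrnpk and Ptbp2 lie right of it.

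The calls are given here by signal and by scaling. All 9 falls were among the 21 members with a mean signal above 2001, and all 21 of these had a negative change (median -0.18), with 42.9% called lower. Other tested genes above that signal had a median of -0.13, 74.6% of them negative, 30.7% called lower and 6.91% called higher. Among the 33 members between 500.2 and 2001 the median was -0.01, with 1 rise and no fall, and among the 8 below 500.2 it was 0.11, with 1 rise and no fall. The other genes in these ranges had medians of 0.01 and 0.08. Between 500.2 and 2001, 14.6% of the other genes were called higher and 10.2% lower. Below 500.2, 13.7% were called higher and 1.58% lower. Scaling the arrays to equal medians over all probe sets moved the median of all tested genes by -0.13, to -0.11. It gave 24 member falls and 1 rise. Over all tested genes it gave 1099 falls and 363 rises, beside 501 and 690 as deposited. Quantile normalization gave 4 member falls and 2 rises, as did cyclic loess. All tested genes had 463 falls and 556 rises after quantile normalization, and 436 and 572 after cyclic loess. The median of the members minus that of all tested genes was -0.10 as deposited and after median scaling, and -0.02 after quantile or cyclic loess normalization. Leaving out single embryos left from 3 falls (without wild type embryo 3) to 7 (without wild type embryo 1), with 4 without Rb null embryo 1, 5 without Rb null embryo 2 and 6 without either Rb null embryo 3 or wild type embryo 2. The rises numbered 2 without Rb null embryo 1, 0 without Rb null embryo 2, and 1 with any of the other embryos left out. Calls over all tested genes were fewer in these fits as well. Their falls went from 257 (without wild type embryo 3) to 428 (without Rb null embryo 3), beside 501. Their rises went from 406 (without Rb null embryo 2) to 553 (without wild type embryo 2), beside 690.

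**Figure D2:**
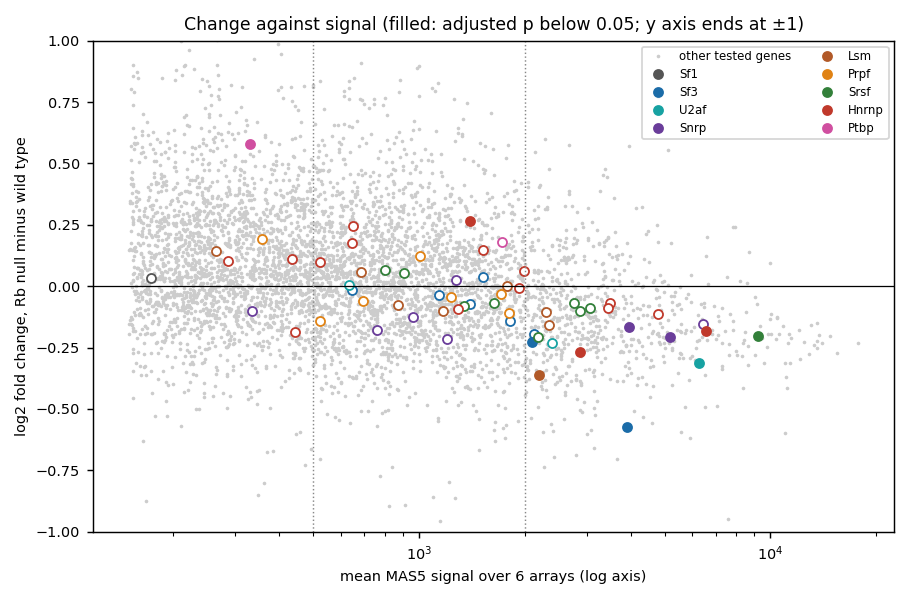
Log2 fold change (y axis) against mean signal over the 6 arrays (x axis, log scale) for the member genes in colour and the other tested genes in grey; dotted lines mark signals of 500.2 and 2001, filled points passed the test, and 30 grey genes lie beyond the y axis. Members to the right of 2001 all lie below 0, where most grey points lie below 0 too.

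The sequence before the start of the members was read from RefSeq promoters of GRCm38.p6, of which 68 windows matched 54 of the 63 genes by symbol. The 250 bases before each start were searched on both strands for E2F words (TTTCCCGC, TTTGGCGC, TTTGCCGC or TTTCGCGC), for the ETS core CCGGAAG and for CCNCNCCC, a form of the CACC box that Kruppel-like factors bind. These were chosen because Rb binds E2F proteins and because ETS and Kruppel-like factors act in blood cells. E2F words stood in 6 of the 68 windows (8.82%), against 1.86% of all 32851 windows. ETS words stood in 26.5% against 6.91%, and CACC words in 64.7% against 45.9%. Member windows were richer in G and C, with a median of 61% against 52.4%. Of the 9 changed genes with a window, 0 held an E2F word there, 2 an ETS word and 5 a CACC word. Over all 54 member genes these counts were 5, 15 and 37. So few changed genes cannot show whether they differ from the other members. The 5 member genes with an E2F word, Hnrnpr (0.15 ± 0.08), Prpf38a (-0.06 ± 0.15), Srsf1 (-0.08 ± 0.07), Srsf10 (0.06 ± 0.07) and U2af1 (-0.23 ± 0.11), did not pass the test. A match is a description of letters, not a shown binding site.

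Shown are the windows of the falls with the largest change among the members, of both rises, and of one member with an E2F word, 5' to 3' along the gene, with the matches in capitals. Sf3a2 lies on the plus strand (chr10:80798485-80798734) and has an ETS core from 76 to 70 bases before the start. Lsm3 is on the plus strand (chr6:91515785-91516034) and has 5 CACC words between 175 and 97 bases before the start, of which the last pair overlap. Ptbp2 is on the minus strand (chr3:119783389-119783638), Hnrnpk is on the minus strand (chr13:58402118-58402367), and each has 1 CACC word from 31 to 24 bases before the start. Srsf1 is on the plus strand (chr11:88047123-88047372), with an E2F word from 67 to 60 bases before the start.
Sf3a2: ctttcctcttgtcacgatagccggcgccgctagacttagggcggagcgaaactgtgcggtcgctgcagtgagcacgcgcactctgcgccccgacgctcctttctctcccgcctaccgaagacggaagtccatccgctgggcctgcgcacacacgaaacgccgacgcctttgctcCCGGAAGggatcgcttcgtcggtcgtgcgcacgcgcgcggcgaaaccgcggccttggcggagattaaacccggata
Lsm3: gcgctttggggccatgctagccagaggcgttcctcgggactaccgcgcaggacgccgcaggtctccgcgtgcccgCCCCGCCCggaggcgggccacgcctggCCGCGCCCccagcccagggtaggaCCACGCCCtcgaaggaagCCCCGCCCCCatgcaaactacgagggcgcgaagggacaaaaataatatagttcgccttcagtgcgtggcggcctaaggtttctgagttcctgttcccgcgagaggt
Ptbp2: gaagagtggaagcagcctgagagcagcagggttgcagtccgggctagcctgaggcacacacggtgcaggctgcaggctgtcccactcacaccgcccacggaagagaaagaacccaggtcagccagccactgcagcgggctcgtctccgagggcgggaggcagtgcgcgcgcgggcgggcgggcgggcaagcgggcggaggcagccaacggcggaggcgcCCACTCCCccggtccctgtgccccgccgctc
Hnrnpk: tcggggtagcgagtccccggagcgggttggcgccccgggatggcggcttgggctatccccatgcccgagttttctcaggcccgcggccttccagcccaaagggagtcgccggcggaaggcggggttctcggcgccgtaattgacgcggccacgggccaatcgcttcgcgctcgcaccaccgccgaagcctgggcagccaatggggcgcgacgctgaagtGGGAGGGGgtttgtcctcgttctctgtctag
Srsf1: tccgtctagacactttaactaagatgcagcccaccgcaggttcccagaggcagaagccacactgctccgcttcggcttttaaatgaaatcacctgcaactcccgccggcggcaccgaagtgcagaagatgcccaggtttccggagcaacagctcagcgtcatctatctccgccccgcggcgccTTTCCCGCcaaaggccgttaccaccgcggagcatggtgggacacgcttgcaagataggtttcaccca

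Of the 12 Sf1, Sf3 and U2af genes, whose proteins act at the branch site and the end of the intron, Sf3a2, Sf3b5 and U2af2 fell and the other 9 did not pass. The background of falls was 9.50% of all tested genes. It was 30.7% of the other tested genes with a signal above 2001, where Sf3a2, Sf3b5 and U2af2 also lay. Sf3a2 encodes a subunit of the SF3A complex of the U2 snRNP. Its signal was 2778, 3075 and 3582 in Rb null and 4288, 4936 and 4846 in wild type livers. All Rb null values lay below all wild type values, and the level was 1.49-fold lower (-0.57 ± 0.10, q = 0.0052). Its other probe set read 2823, 2747 and 3178 against 3546, 3820.5 and 4125 and fell too (-0.39 ± 0.08, q = 0.010). Both carry suffix letters that mark departures from the usual choice of probes on this array, so no plain probe set of Sf3a2 was there to compare. The Sf3a2 fall, whose window is printed above, kept its call under every alternative that could be fitted, from -0.71 to -0.46.

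U2af2 encodes the large U2AF subunit, which binds the polypyrimidine tract. It read 5676, 5194 and 5890.5 in Rb null against 6554.5, 7304 and 7015 in wild type livers. The groups did not overlap (-0.31 ± 0.07, q = 0.013), and the call was lost only after cyclic loess normalization (-0.15, q = 0.063). Its partner U2af1, which contacts the end of the intron, did not pass, with 1994, 2517 and 2067 against 2258, 2749.9 and 2735.5 (-0.23 ± 0.11, q = 0.16). One Rb null value lay within the wild type range. The paralogue U2af1l4 read 635 ± 14.4 against 634 ± 37.5, with an interval of -0.16 to 0.17.

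Sf3b5, a small subunit of SF3B, read 1912, 1969 and 1919.5 against 2204, 2306.5 and 2304. The Rb null embryos were close together and below all wild type embryos (-0.23 ± 0.05, q = 0.016). It did not pass without Rb null embryo 1 (q = 0.054), without wild type embryo 3 (q = 0.058) or after quantile normalization (-0.17, q = 0.054). Of the other subunits, Sf3b6, which touches the branch point adenosine (-0.19 ± 0.07, q = 0.098), and Sf3a3 (-0.14 ± 0.06, q = 0.11) did not pass. The core subunit Sf3b1, the largest protein of the complex, read 1537 ± 37.3 against 1498 ± 33.9 on its brighter probe set, with an interval of -0.09 to 0.16. Its second probe set, described below, gave 0.20 ± 0.08 and did not pass either (q = 0.10). Sf3b2 (645 mean signal, -0.01 ± 0.09), Sf3b3 (-0.07 ± 0.05) and Sf3a1 (-0.04 ± 0.06) did not pass either. Of the 8 Sf3 genes, 2 fell, 7 had a negative change, and the median was -0.11. Among all tested genes 9.50% fell and 46.2% had a negative change. Sf1, the first protein on the branch site, was dim at 175 ± 16.2 against 170.3 ± 21.4 (0.03 ± 0.12, q = 0.87), and its other probe set, at a mean of 2.37, was not tested.

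Of the 8 Snrp genes, 7 of which encode Sm ring proteins or proteins of the U1 and U2 particles beside the pseudogene symbol Snrp1c-ps2, 2 fell and 7 had a negative change (median -0.16). Among all tested genes 9.50% fell and 46.2% had a negative change. Both falls, Snrpe and Snrpg, had mean signals above 2001, where 30.7% of the other tested genes fell. Snrpe, an Sm protein of all major snRNPs, was read only by a probe set with a suffix letter. Its signal was 4888, 4645 and 4912 in Rb null against 5511, 5487 and 5699.7 in wild type livers. The groups were apart (-0.21 ± 0.05, q = 0.020). It did not pass without Rb null embryo 1, Rb null embryo 2 or wild type embryo 3 (q = 0.055, 0.062 and 0.077) or with no intensity trend (q = 0.058), and after quantile or cyclic loess normalization the change was -0.06 (q = 0.31 and 0.29). Snrpg, its neighbour in the Sm ring, read 3748, 3549 and 3855 against 4140.4, 4244 and 4157. It passed narrowly (-0.17 ± 0.05, q = 0.0497). It did not pass without any 1 of the embryos (q from 0.051 to 0.13), with the replicate number as a block (q = 0.069), no signal filter (q = 0.082) or no trend (q = 0.11), or after quantile (-0.06, q = 0.37) or cyclic loess normalization (-0.05, q = 0.46).

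The remaining Snrp genes did not pass. Snrpd3, another Sm protein, read 1106 ± 81.8 against 1294.5 ± 114 and the groups did not overlap (-0.22 ± 0.08, q = 0.094). Snrpb, also of the Sm ring and read by the probe set with the highest mean signal of these genes, varied widely within each genotype, with 6283, 5119.8 and 6919 against 6032.5, 6823 and 7496 (-0.16 ± 0.12). Snrpb2 (-0.10 ± 0.15) and Snrpa1 (-0.13 ± 0.07), proteins of the U2 particle, and Snrpc (0.03 ± 0.07), of the U1 particle, had intervals that included 0. Snrp1c-ps2 (-0.18 ± 0.17) was the least precise of all members.

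Among the 8 Lsm genes only Lsm3, a member of both LSm rings, fell. Its signal was 1820.2, 1965 and 1959 in Rb null and 2328, 2365 and 2757 in wild type livers. The groups were apart, with wild type embryo 3 the highest (-0.36 ± 0.08, 1.29-fold lower, q = 0.012). This call was kept under all alternatives, with changes from -0.50 to -0.29. Not every protein of the ring that binds the end of U6 RNA was among the 8 genes. Those that were, other than Lsm3, did not pass: Lsm7 (-0.16 ± 0.07), Lsm4 (-0.11 ± 0.06), Lsm8 (-0.10 ± 0.06) and Lsm2 (-0.08 ± 0.07). All had negative values, and Lsm4 and Lsm8 showed no overlap of the groups. Lsm1, which takes the place of Lsm8 in the cytoplasmic ring of mRNA decay, read 280 ± 25.5 against 249 ± 23.8 (0.14 ± 0.11). Lsm14a (0.00 ± 0.12) and Lsm14b (0.06 ± 0.10), translational repressors of cytoplasmic RNA granules, did not pass.

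None of the 7 tested Prpf genes passed limma at a q of 0.05, and none had an unadjusted p below 0.05. Prpf8, the large protein at the catalytic centre, read 1718, 1739.6 and 1620.5 in Rb null against 1718, 1780.3 and 1697 in wild type livers. The groups overlapped and the interval was -0.16 to 0.09. Prpf6, a bridging protein of the U4/U6.U5 particle, read 1732 ± 75.6 against 1872 ± 60.7 (-0.11 ± 0.06, q = 0.21), and Prpf4b, a kinase of the spliceosome, read 385 ± 10.4 against 332 ± 35.0 (0.19 ± 0.09, q = 0.19). Each of these had no overlap between groups. Prpf31 (-0.14 ± 0.11), Prpf38b (-0.04 ± 0.06), Prpf38a (-0.06 ± 0.15) and Prpf19 (0.12 ± 0.07), a ubiquitin ligase of the activated spliceosome, overlapped. Prpf39, a partner of the U1 particle, read 75.4 ± 18.2 against 82.2 ± 7.98 and was the only member gene below the signal filter. The members just above the filter were Sf1, Lsm1 and Hnrnph2, at mean signals of 173, 264 and 286.

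**Figure D3:**
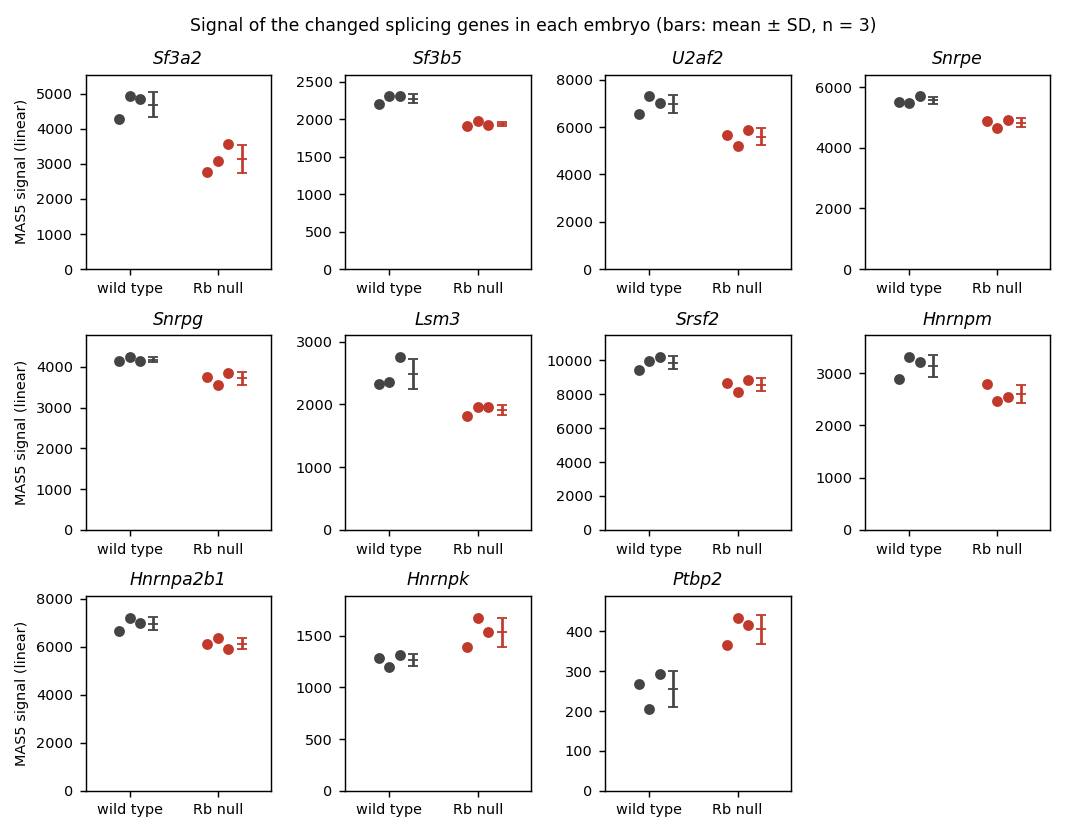
MAS5 signal (linear y axis from 0) of the 11 member genes that passed the test, one point per embryo, with mean ± SD beside the points. In each panel the 3 Rb null embryos lie on one side of the 3 wild type embryos, below them in 9 genes and above them for Hnrnpk and Ptbp2.

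Of the 9 SR protein genes, Srsf2 alone fell. Srsf2, also known as SC35, binds exonic enhancers. It read 8687, 8131 and 8865 in Rb null against 9437, 9979 and 10197 in wild type livers. The groups were apart by a small margin (-0.20 ± 0.06, q = 0.035), and the other Srsf2 probe set did not pass, with 3415 ± 253 against 3614 ± 166 (-0.08 ± 0.07). Both Srsf2 probe sets carry suffix letters. Srsf2 did not pass without Rb null embryo 1 or 2 (q = 0.086 and 0.096) or wild type embryo 2 or 3 (q = 0.097 and 0.12). The mean of both probe sets (-0.14, q = 0.060), no filter (q = 0.085) and no trend (q = 0.0795) also ended the call. After quantile normalization the change was -0.04 (q = 0.43), and after cyclic loess it was 0.00 (q = 0.94).

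The other SR genes had estimates between -0.21 and 0.06. Srsf6 read 2042, 1916 and 2073 against 2366, 1961 and 2715, so that the wild type embryos spread more widely than the difference (-0.21 ± 0.11, q = 0.21). Srsf5 (-0.10 ± 0.06), Srsf9 (-0.09 ± 0.06), Srsf11 (-0.07 ± 0.06) and Srsf3 (-0.07 ± 0.07) did not pass. Srsf1, the founding SR protein, read 1303 ± 103 against 1382 ± 72.4 (interval -0.25 to 0.09). Srsf4 (0.05 ± 0.13) and Srsf10 (0.06 ± 0.07), the latter with the lowest mean signal of these genes at 801, did not pass.

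The 16 hnRNP genes moved both ways, with 2 falls, 1 rise, 8 estimates on each side of 0 and a median of 0.03. Among all tested genes 9.50% fell, 13.1% rose and 46.2% had a negative change. Hnrnpm, a regulator of alternative exons, read 2794, 2465 and 2535 in Rb null and 2893, 3309.6 and 3213 in wild type livers. Rb null embryo 1 lay just under wild type embryo 1 (-0.27 ± 0.07, q = 0.031). Hnrnpm did not pass without Rb null embryo 2 or 3 (q = 0.10 and 0.075) or wild type embryo 2 or 3 (q = 0.087 and 0.095). The same held with the replicate block (q = 0.058), no filter (q = 0.061), no trend (q = 0.063), and after quantile (-0.16, q = 0.17) or cyclic loess normalization (-0.18, q = 0.11). Hnrnpa2b1, which binds and sorts RNA in nucleus and cytoplasm, read 6131.5, 6383 and 5905 against 6685, 7212 and 7005. The groups were apart (-0.18 ± 0.05, q = 0.046). It did not pass once any 1 embryo was left out (q from 0.052 to 0.13), with no filter (q = 0.094), no trend (q = 0.10) or its probe sets averaged (-0.13, q = 0.21). Its change was -0.01 after quantile or cyclic loess normalization (q = 0.89 and 0.88).

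Hnrnpk, a poly(C)-binding protein of transcription, splicing and translation, rose. It read 1395, 1672 and 1533 in Rb null and 1283, 1195 and 1315 in wild type livers. All Rb null embryos were higher (0.27 ± 0.08, 1.20-fold, q = 0.041). After median scaling the change was 0.13 (q = 0.31). Hnrnpk passed without Rb null embryo 1, but not without any of the other embryos (q from 0.070 to 0.12), nor with the replicate block (q = 0.061), no filter (q = 0.071) or no trend (q = 0.069). Hnrnph3, a splicing regulator that binds G-rich RNA, read 717, 668 and 746 against 652, 607 and 519 and did not pass (0.25 ± 0.09, q = 0.095), although its groups did not overlap. Its relatives Hnrnph1 (-0.09 ± 0.05) and Hnrnph2 (299 ± 47.3 against 274 ± 21.8, 0.10 ± 0.12) did not pass.

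Hnrnpa1, a widely studied repressor of exons, read 420, 421 and 397 in Rb null and 473, 473 and 485 in wild type livers. The embryos of each genotype agreed closely and the groups were apart, but the change did not pass (-0.19 ± 0.07, q = 0.10), except after quantile, cyclic loess or median scaling. Hnrnpc, a protein of the core hnRNP particle, read 686 ± 62.1 against 607 ± 111 (0.17 ± 0.13). Hnrnpr (0.15 ± 0.08), Hnrnpu (0.11 ± 0.07) and Hnrnpul2 (0.10 ± 0.09) had positive estimates and Hnrnpab (-0.09 ± 0.07) and Hnrnpd (-0.07 ± 0.05) negative ones. None of these passed. Hnrnpl (0.06 ± 0.09) and Hnrnpll (-0.01 ± 0.12), which regulate the same kind of CA-rich sites, did not pass. Hnrnpdl is described with the genes read by several probe sets.

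Ptbp2, the neuronal paralogue of the polypyrimidine tract binding protein, had the largest rise of the 62 genes. It read 365, 434 and 415 in Rb null and 268, 205 and 294 in wild type livers. The groups were well apart at low signals (0.58 ± 0.13, 1.50-fold, q = 0.016), and the gene did not pass without Rb null embryo 2 (0.53, q = 0.061). Its other probe set, at 40.6 ± 3.94 against 34.5 ± 2.91, lay below the filter. Ptbp3, a paralogue known from blood cells, read 1730, 1902 and 1837 against 1740.1, 1316.5 and 1786, with 1 low wild type embryo and overlapping groups (0.18 ± 0.11, q = 0.28).

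Summed over the genes of a group, signal was lower in all Rb null embryos than in all wild type embryos for the Sf3, U2af, Snrp, Lsm, Srsf and Hnrnp groups, and higher for Ptbp. All 63 genes together made up 1.48 to 1.51% of the signal of the array in Rb null and 1.58 to 1.61% in wild type livers. The Rb null sums were 91.4 ± 1.10% of the wild type mean for all members, 84.7 ± 2.57% for Sf3, 82.7 ± 1.50% for U2af and 97.7 ± 1.89% for Prpf, which overlapped the wild type range. Genes with a high signal weigh most in these sums, and 74.6% of the other tested genes above a signal of 2001 had a negative change. No background was computed for sums of this kind. Of the Hnrnp genes 8 had a positive and 8 a negative estimate. The Ptbp sums were narrowly apart, with 2095 in the lowest Rb null embryo against 2080 in the highest wild type embryo.

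**Figure D4:**
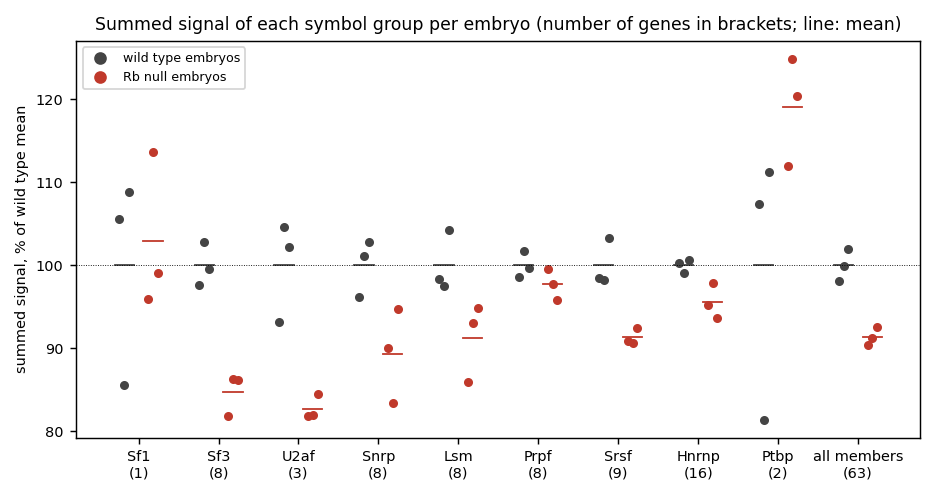
Summed MAS5 signal of the genes of each symbol group in each embryo, as percent of the wild type mean (y axis, not starting at 0), with lines for the genotype means and the number of genes in brackets. Rb null points lie below the wild type points in the Sf3, U2af, Snrp, Lsm, Srsf and Hnrnp groups and above them in Ptbp, while Sf1 and Prpf overlap.

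Several genes were read by more than 1 probe set. Of the 63 genes 18 had several probe sets and 10 had at least 2 that were tested. The sign differed between tested probe sets in 5 (Hnrnpdl, Srsf1, Srsf10, Srsf3 and Srsf4), and the call differed in Hnrnpa2b1 and Srsf2, for which the test of the difference between probe sets gave an exact p of 0.2 and 0.5. Hnrnpdl, a relative of Hnrnpd, read 4655.5, 4549.6 and 4577 in Rb null and 4930.1, 4856 and 5120.4 in wild type livers on its first probe set (-0.11 ± 0.05, q = 0.13). On another it read 751, 712 and 706 against 643, 649 and 616.5 (0.17 ± 0.07, q = 0.097). Neither passed, and in each the groups were apart, in opposite directions. The first carries a suffix letter and the other does not.

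The second Srsf1 probe set read 1098, 1134 and 962 against 944.5, 855 and 912 (0.22 ± 0.08, q = 0.076), beside -0.08 ± 0.07 on the first and -0.05 ± 0.13 on the third. For Sf3b1 the second probe set read 963 ± 87.5 against 829.5 ± 29.2 (0.20 ± 0.08, q = 0.10), beside 0.04 ± 0.05 on the first. The remaining pairs were closer or less precise. Srsf4 gave 0.05 ± 0.13 and -0.17 ± 0.14, Srsf10 gave 0.06 ± 0.07 and -0.09 ± 0.12, Srsf3 gave -0.07 ± 0.07 and 0.06 ± 0.10, and Hnrnpa2b1 gave -0.18 ± 0.05 and -0.07 ± 0.10. The difference between probe sets of a gene was compared between genotypes by a two-sided exact permutation test in 11 pairs, for which 3 against 3 allows no p below 0.1. It reached that smallest value for Hnrnpdl (0.28), Srsf1 (0.31), Sf3a2 (0.19), Sf3b1 (0.17), Srsf3 (0.13) and Srsf4 (-0.22), as second minus first in log2 units, with a Benjamini-Hochberg adjusted p = 0.18 for each. Suffix letters are carried by the third Srsf1, the first Srsf3 and the second Srsf4 probe set, and by both of Sf3a2. Which exons these probes read was not analysed here.

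**Figure D5:**
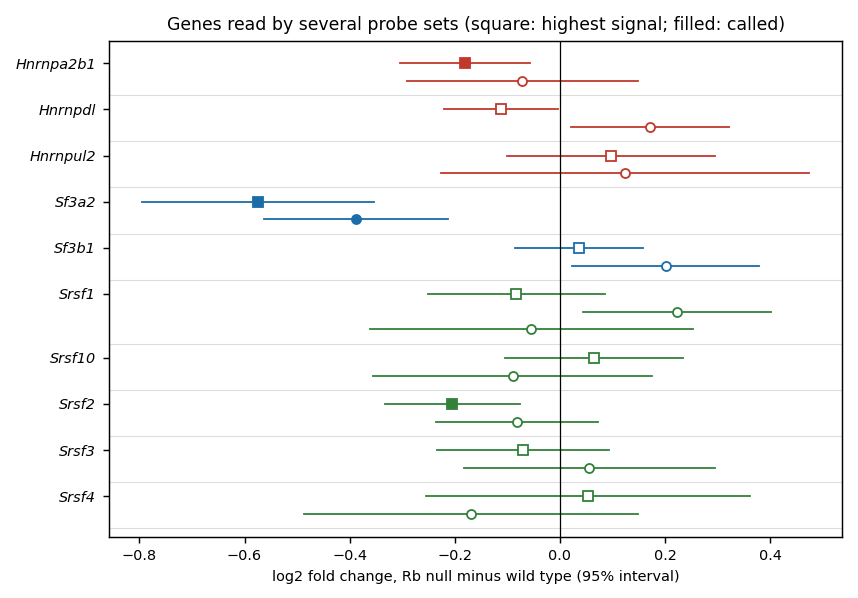
Log2 fold change (x axis) with 95% interval for every tested probe set of the 10 genes with at least 2; squares mark the probe set with the highest signal and filled symbols those that passed. Both Sf3a2 probe sets lie left of 0, and those of Hnrnpdl lie on opposite sides of it.

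Splicing genes outside the symbol rule were taken from lists. Of 40 tested proteins of the spliceosome, 6 fell and 2 rose (median -0.07), beside backgrounds of 9.50% and 13.1% of all tested genes. Phf5a, the SF3B subunit that holds the branch point with Sf3b1, read 1067 ± 172 against 1514 ± 234 (-0.49 ± 0.14, q = 0.039). Phf5a did not pass without Rb null embryo 1 or 3 (q = 0.093 and 0.090), wild type embryo 1 or 2 (q = 0.11 and 0.093), or with no filter (q = 0.081) or no trend (q = 0.062). Syf2 (-0.37 ± 0.08, q = 0.011), Snrnp25 of the minor spliceosome (-0.36 ± 0.08, q = 0.014) and Bud31 (-0.27 ± 0.05, q = 0.0091) also fell. Snrnp25 did not pass without wild type embryo 3 (q = 0.051). Bud31 did not pass after quantile normalization (-0.17, q = 0.056) or on its probe set without a suffix letter (-0.26, q = 0.21). The RNA helicases Ddx5, from 843 ± 39.7 to 1104.5 ± 113 (0.37 ± 0.08, q = 0.017), and Ddx17 (0.18 ± 0.05, q = 0.030), which are close paralogues, rose. After median scaling their changes were 0.24 (q = 0.079) and 0.04 (q = 0.61). Ddx5 did not pass without wild type embryo 3 either (q = 0.054). Ddx17 did not pass once any 1 embryo was left out (q from 0.051 to 0.091) or with no trend (q = 0.075).

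Of 34 other splicing regulators and RNA-binding proteins, 5 rose and 5 fell (median -0.04), where 22.6% of all tested genes changed, 13.1% up and 9.50% down. Celf2, which binds GU-rich RNA, rose from 223 ± 29.7 to 402 ± 38.9 (0.73 ± 0.11, q = 0.0037), and kept its call in all alternatives that tested it. Cirbp, a cold-inducible RNA-binding protein (0.39 ± 0.09, q = 0.021), Scaf11 (0.40 ± 0.10, q = 0.029) and Pcbp4, a relative of Hnrnpk (0.37 ± 0.10, q = 0.037), rose too. After median scaling these did not pass (q = 0.071, 0.087 and 0.11), nor after quantile normalization (q = 0.056, 0.087 and 0.10). Cyclic loess normalization (q = 0.084 and 0.092), no filter (q = 0.064 and 0.075) and the replicate block (q = 0.053 and 0.052) ended the Scaf11 and Pcbp4 calls. Cirbp did not pass without Rb null embryo 1 or 2 (q = 0.075 and 0.071) or wild type embryo 1 (q = 0.062). Scaf11 and Pcbp4 passed without Rb null embryo 3 but not without any of the others (q from 0.051 to 0.098, and from 0.057 to 0.12).

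Clk3, a kinase of SR proteins, fell from 1001 ± 60.9 to 737 ± 69.9 (-0.42 ± 0.08, q = 0.010), and Raly, an hnRNP by sequence, from 625 ± 39.8 to 464 ± 12.8 (-0.39 ± 0.08, q = 0.0092). Both kept their calls in all alternatives. Fubp1 (-0.27 ± 0.07, q = 0.025) and Mbnl1, a muscleblind regulator known from erythroid maturation (-0.24 ± 0.07, q = 0.045), fell as well. The Fubp1 change was -0.09 without wild type embryo 3 (q = 0.54) and -0.13 with its probe sets averaged (q = 0.25). Fubp1 did not pass without Rb null embryo 1 or 3 (q = 0.081 and 0.058) or wild type embryo 1 (q = 0.074) either. Mbnl1 did not pass without Rb null embryo 1 or 2 (q = 0.13 and 0.089) or wild type embryo 1 or 3 (q = 0.11 and 0.14). Nor did it with no filter (q = 0.0795), no trend (q = 0.082), quantile normalization (-0.15, q = 0.13) or cyclic loess (-0.16, q = 0.13).

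Of 12 tested genes of snRNP assembly, the exon junction complex and mRNA export, 2 rose and 2 fell (median -0.09), against the background of 22.6% changed either way. Strap, a partner of the SMN complex, rose from 706 ± 53.4 to 1091 ± 95.6 (0.59 ± 0.08, 1.51-fold, q = 0.0027) and kept its call in all alternatives. Clns1a, a chaperone of Sm proteins before they enter the ring, rose from 1578 ± 133 to 2141 ± 203 (0.43 ± 0.09, q = 0.012), but with its probe sets averaged the change was 0.20 (q = 0.061). Smn1, which loads Sm rings onto RNA, fell (-0.22 ± 0.07, q = 0.044), and so did Rbm8a of the exon junction complex (-0.24 ± 0.06, q = 0.024). Smn1 passed without Rb null embryo 1 but not without any of the others (q from 0.063 to 0.13), nor after quantile (q = 0.067) or cyclic loess normalization (q = 0.074), with no filter (q = 0.067) or with no trend (q = 0.075). Rbm8a did not pass without Rb null embryo 1 or 3 (q = 0.073 and 0.060), wild type embryo 2 or 3 (q = 0.067 and 0.051), after cyclic loess normalization (q = 0.054) or with no trend (q = 0.0501).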

How the data were processed

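The deposited values are MAS5 signal intensities, 1 per probe set and array, computed by the authors with MAS5 per the submitters' processing notes. The version and the scaling target are not given in the sources used here. The intensities are linear and equally scaled. All 12488 probe sets were read, of which 66 array controls were left out of the tests. Probe sets were named by the platform annotation. Of these 10833 had 1 symbol, 396 several and 1193 none. An offset of 50.02 (0.1 of the trimmed mean of 500.2) was added before log2. Probe sets above a mean signal of 150.1 entered 1 fit by limma 3.58.1 (R 4.3.3; two-sided, variance trend over intensity), with p adjusted by Benjamini-Hochberg over 6793 probe sets. The procedure was tested on simulated data.

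The members and lists were chosen with earlier results of these data known. Genes named were those past the threshold, the 2 smallest p where a group had fewer than 2, members with the highest and lowest signal of a group or next to the filter, genes whose probe sets disagreed, and up to 4 genes per list and direction. Other members are named to account for all. Alternatives were other normalizations, offsets (10 and 150.1), filters (none and 500.2), variance models, the replicate block, the mean of probe sets, leaving out suffixed probe sets (letters s, f, r, g or i) and leaving out each embryo. P values measure the spread between embryos, whose number limits the precision.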

Additional observations from a re-analysis of the deposited data

How the results depend on the processing

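No change of a member gene past the threshold reversed under any alternative that was run. The count of member falls (9) was 4 after quantile or cyclic loess normalization and with no intensity trend, 5 with no filter and 24 after median scaling, and from 3 to 7 on leaving out each embryo in turn. Falls over all tested genes numbered 501 in the main fit. They were 463 after quantile, 436 after cyclic loess, 357 with no trend, 348 with no filter and 1099 after median scaling. Leaving out each embryo gave from 257 to 428. The count of member rises (2) was 1 after median scaling, with no filter, with the filter of 500.2, with no trend and with the replicate block, and from 0 to 2 on leaving out each embryo. Rises over all tested genes numbered 690 in the main fit. They were 363 after median scaling, 555 with no filter and 428 with the filter of 500.2. With no trend they were 654, with the replicate block 639, and from 406 to 553 on leaving out each embryo. The fits with no filter and with the filter of 500.2 tested 8251 and 3119 genes. The member median of -0.08 was -0.041 after quantile normalization, -0.034 after cyclic loess and -0.21 after median scaling, which moved it by more than the spread between embryos of 0.025. Both offsets and the robust trend left 9 falls and 2 rises, with all 11 calls shared. Without suffixed probe sets 8 of the 11 calls were kept, and Sf3a2, Snrpe and Srsf2 could not be tested.

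Of the other lists, the regulators had 5 calls after quantile normalization, 6 after cyclic loess and from 3 to 10 on leaving out embryos, beside 10. The assembly and exon junction list had 2 calls after cyclic loess and with no trend and 2 or 3 on leaving out each embryo, beside 4. The spliceosome list had from 4 to 6 on leaving out each embryo, beside 8. The cause of these shifts was not tested.

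The labels state no pairing of the replicate numbers, so the main fit was unpaired. Same-numbered embryos of the genotypes deviated together with r = -0.062, 0.049 and 0.27 over probe sets. For embryos of different numbers r lay between -0.255 and 0.223. These values cannot settle whether the numbers pair the samples. With the replicate block 8 of the 11 member calls were kept and Snrpd3 was added. With 3 embryos per genotype the 95% intervals of the members had a median half-width of 0.17 on the log2 scale, so that smaller changes were often, though not always, within the error.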

Other observations

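Some members varied between embryos of one genotype more than between genotypes. These were picked after their values were seen. Prpf38a, a protein of the precatalytic spliceosome, read 760.5, 731 and 549 in Rb null and 776, 794 and 565.5 in wild type livers, with 1 low embryo in each genotype. Srsf4 read 1119.7, 849 and 807 against 849, 1022 and 787, with 1 high embryo in each. Lsm14a ranged from 1452 to 2086 among Rb null embryos, and Hnrnpll between 1663 and 2197 among Rb null embryos, with 1773 to 2231 among the wild type. The SE of these 4 changes lay between 0.12 and 0.15.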
